A study of Schizosaccharomyces pombe with 28 samples.

Results

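The 9 genes described here are the pheromone, receptor and regulator genes of fission yeast mating that the arrays were searched for by name: mfm1, mfm2 and mfm3, map2, mam1, map3, mam2, map1 and ste11. A feature was taken when its gene name, after removal of a prefix marking an intergenic region, was 1 of these 9. This gave 14 measured features of 9848, namely 6 open reading frame (ORF) features of 4885 and 8 intergenic region (IGR) features of 4963. The IGR feature of ste11 was marked missing on the arrays, and mfm1, mfm2 and mfm3 had no ORF feature, so ste11 was measured only in its ORF and the 3 mfm genes only in their IGR. The positions of the spotted fragments are not given in the files, so an IGR feature is described by the gene it is named for.

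Fission yeast cells of opposite mating types, P and M, each secrete a peptide pheromone and carry the receptor for the pheromone of the other type. The signal runs through a G protein and a MAP kinase cascade to Ste11, an HMG-box transcription factor that is induced when nutrients run out and that binds a short element, the TR-box, upstream of mating genes. Dimethylation of histone H3 at lysine 4 (H3K4me2) is a mark of transcribed chromatin, and dimethylation at lysine 9 (H3K9me2) is the mark of heterochromatin in this yeast.

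The study compared cells lacking swm1 (swm1Δ), a homologue of the human demethylase LSD1, with wild-type cells (wt), by chromatin immunoprecipitation on spotted 2-colour arrays (ChIP-chip). H3K4me2 and H3K9me2 were each measured on 2 ORF and 2 IGR arrays as swm1Δ over wt, and the methods describe the 2 as independent ChIP samples with the dyes swapped. The remodelling factors Hrp1 and Hrp3, tagged with myc, were each measured on 3 ORF and 3 IGR arrays as immunoprecipitate (IP) over input, with no label saying that the 3 came from separate cultures. Their p-values therefore measure only the spread between these arrays, which may be technical. For methylation the methods do not say whether the 2 ChIP samples came from separate cultures, so those p-values may carry the same limit. All cells are Schizosaccharomyces pombe. In the swm1Δ strain the swm1 coding region was replaced by a drug resistance marker. The methods name a parent strain of mating type h− for the strains with TAP-tagged Swm1 and Swm2. They do not state the mating types of the cells hybridised to the arrays. Each feature was spotted 2 times, and array 1 of H3K4me2 IGR was read from 1 spot a feature.

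Arrays differed in how far they agreed. Between the 2 H3K4me2 arrays Pearson's r over all features was 0.70 for ORF and 0.43 for IGR, and between the 2 H3K9me2 arrays it was 0.06 for ORF and 0.01 for IGR. The deleted gene was low on both H3K4me2 ORF arrays, at log2 ratios of -4.04 and -3.76. It gave no such check for H3K9me2, since its ORF ratios were 0.03 and -1.44 and the first of these came from spots at 0.94 to 1.46 times the local background in both dyes. The swm1 IGR values were -2.39 and -2.29 for H3K4me2 and 0.81 and 0.16 for H3K9me2, and where that fragment lies relative to the deleted region is not given. On the ORF part of array 1 of H3K9me2 the dye label conflicts with the label of the IGR part of the same slide. It was read as on the IGR part, and values by its own label are given beside each result that turns on it. The authors' deposited ratios of that ORF array had a Spearman correlation of -0.78 with Cy3 over Cy5, which is the direction used here. Those of ORF array 2 had 0.96. In all 4 Hrp groups 1 array correlated below 0 with the other arrays of its group, so that Hrp directions are not settled.

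The DNA upstream of the members was read from the ASM294v3 assembly to describe what the 3 M-factor genes share and where they differ. It was read after the H3K4me2 values of these genes had been seen. Whether the DNA shown lies in the spotted IGR fragments is not known, and any link between sequence and array values was not tested. The TR-box core searched for was CTTTGTT, on both strands (AACAAAG on the other), in the 250 bases before each annotated gene start. It was found in 6 of the 9 members, against 446 of 5112 such windows in the genome (8.72%). mam1 had 2 matches, mam2, mfm1, mfm2, mfm3 and ste11 had 1 each, and map1, map2 and map3 had none in this window. A match is a run of letters and not a measured binding site. The windows below run 5′ to 3′ on the coding strand of each gene, with the matches in capitals. They lie at I:4916906-4916975 (+) for mfm1, I:2913289-2913358 (-) for mfm2, II:700170-700239 (+) for mfm3, II:2600514-2600669 (-) for mam1, I:4780528-4780597 (+) for mam2 and II:3983221-3983290 (+) for ste11.
mfm1: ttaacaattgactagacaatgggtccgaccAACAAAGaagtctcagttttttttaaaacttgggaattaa
mfm3: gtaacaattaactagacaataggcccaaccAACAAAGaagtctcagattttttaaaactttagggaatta
mfm2: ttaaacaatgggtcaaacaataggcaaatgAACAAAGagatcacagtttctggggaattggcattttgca
mam1: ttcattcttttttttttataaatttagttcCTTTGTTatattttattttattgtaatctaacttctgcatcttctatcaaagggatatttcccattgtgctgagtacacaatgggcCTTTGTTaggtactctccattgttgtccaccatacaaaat
mam2: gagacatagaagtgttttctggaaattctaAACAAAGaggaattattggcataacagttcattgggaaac
ste11: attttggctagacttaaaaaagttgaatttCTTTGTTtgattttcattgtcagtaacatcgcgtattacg

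Laid side by side with no gap, the windows of mfm1 and mfm3 had the same base at 57 of 70 positions (81.4%), against 34 of 70 for mfm1 with mfm2 and 32 of 70 for mfm2 with mfm3. The coding sequences had the same order of likeness, with 93% of aligned bases identical between mfm1 and mfm3, 68.1% between mfm1 and mfm2 and 70.6% between mfm2 and mfm3. Over the whole upstream intergenic DNA the longest run shared by mfm1 and mfm3 was 19 bases, and the part that cross-hybridisation between these genes has in the values below was not tested. The match lay 79 bases before the gene start in mfm1, 78 in mfm2, 164 in mfm3, 125 in ste11, 130 in mam2 and 67 and 153 in mam1.

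**Figure D1:**
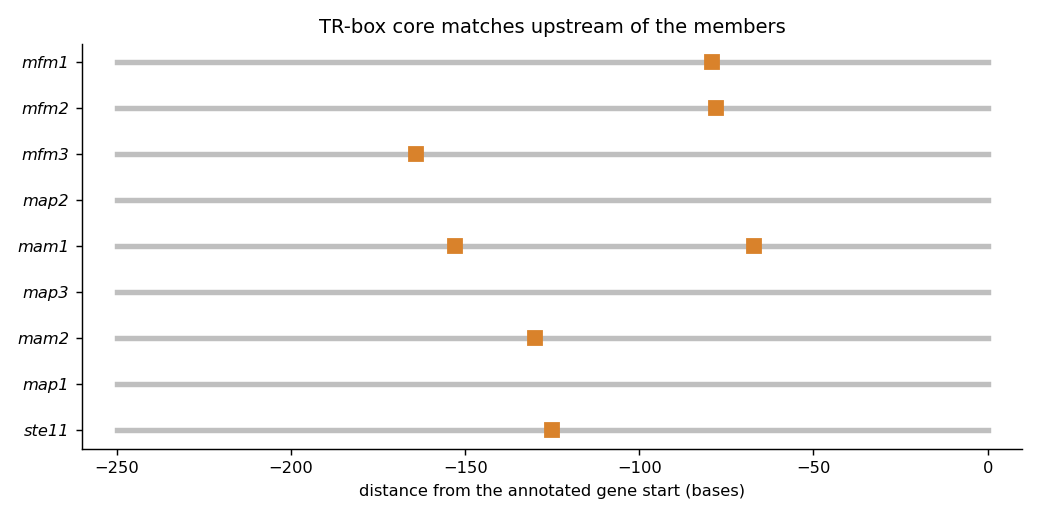
Positions of TR-box core matches (squares) in the 250 bases before the annotated start of each of the 9 members (grey bars), with distance from the start in bases on the x axis. The 6 members with a match include all 3 mfm genes, and map1, map2 and map3 have none.

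The members lie apart in the genome. map1 (chromosome I, 5292705-5294751, + strand), map3 (I, 2833231-2834988, -), mam2 (I, 4780688-4781922, +), mfm1 (I, 4917015-4917521, +) and mfm2 (I, 2912762-2913250, -) are on chromosome I, mam1 (II, 2596405-2600486, -), mfm3 (II, 700364-700700, +) and ste11 (II, 3983376-3987400, +) on chromosome II, and map2 (III, 986014-986684, -) on chromosome III. Of the upstream intergenic stretches that of map1 is the shortest, running to the gene sea3 on the same strand, and that of ste11 the longest, with 5020 bases to cyc3. The mfm2 stretch is 152 bases long and is shared with a divergent gene, and that of mfm1 spans 1597 bases to the divergent gene npc2.

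H3K4me2 in swm1Δ cells was first followed at the pheromone genes, all in their IGR features. mfm1 and mfm3, which encode precursors of M-factor, the lipid-modified pheromone of M cells, were higher in swm1Δ than in wt, while mfm2, which encodes the same pheromone, was near 0. mfm1 had log2 ratios of 1.64 on both arrays, a mean of 1.64 ± 0.00051 (SD, n = 2) or 3.11-fold, with an adjusted p of 0.00054 by limma with Benjamini-Hochberg adjustment over all 4963 IGR features. mfm3 had log2 ratios of 2.48 on array 1 and 0.68 on array 2, a mean of 1.58 ± 1.27 (SD, n = 2) or 3.00-fold, with an adjusted p of 0.0060 by limma. Both arrays were above 0 for each gene, but the mfm3 values were far apart, so that its value without array 1 was 0.68, and its own spread was wider than that of most features (median SD 0.25), which limma draws on when it shares the spread between features.

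By mean ratio mfm1 ranked 35 and mfm3 47 from the top of the 4963 IGR features. mfm2, by contrast, gave 0.20 and -0.06, a mean of 0.07 ± 0.18 (SD, n = 2), with an adjusted p of 0.94 by limma. The difference between the mfm genes was not tested. map2, which encodes the precursor of P-factor, the unmodified peptide pheromone of P cells, gave IGR log2 ratios of 0.63 and 0.88, both above 0, with a mean of 0.75 ± 0.17 (SD, n = 2) and an adjusted p of 0.11 by limma that missed the threshold of 0.05. Its ORF gave 0.61 on array 1 and -0.60 on array 2, so that the arrays were on opposite sides of 0 and the adjusted p was 0.99.

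Raw signals behind these ratios were well above the local background. On array 2 the mfm1 spots read 7625 and 7696 in swm1Δ against 1057 and 812 in wt, and on array 1 the single spot read 2916 in swm1Δ against 5435 in wt before loess normalization. The mfm3 spots on array 2 read 14842 and 12661 in swm1Δ against 3217 and 2826 in wt, and the spot on array 1 read 5933 against 6027. On array 1 the raw signals of both genes were thus lower in swm1Δ or about level, and their ratios above 0 are relative to the other features of the same array. With each array centred on its median in place of loess, the means over both arrays were 1.68 for mfm1 and 1.57 for mfm3. Among the 24 member spots of the H3K4me2 IGR arrays, the signal over background in the dye with the lower value was 1.77 at the lowest and 8.68 at the median.

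The transporter gene mam1 and the receptor gene mam2 were called in their ORF features, in opposite directions, and not in their IGR features. mam1 encodes the ABC transporter that exports M-factor from M cells. Its ORF log2 ratios for H3K4me2 were 0.76 and 0.53, a mean of 0.64 ± 0.16 (SD, n = 2) or 1.56-fold, with an adjusted p of 0.043 by limma. It was above 0 on both arrays and close to the threshold. Its IGR gave 0.07 and -0.67, on opposite sides of 0, with an adjusted p of 0.69.

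mam2, which encodes the P-factor receptor of M cells, was lower in swm1Δ, with ORF log2 ratios of -0.85 and -0.68, a mean of -0.77 ± 0.12 (SD, n = 2) or 1.70-fold lower, and an adjusted p of 0.019 by limma. Its IGR gave 0.37 and -0.11 with an adjusted p of 0.89. map3, which encodes the M-factor receptor of P cells, was also below 0 on both ORF arrays, at -0.28 and -0.43, but with an adjusted p of 0.24 it missed the threshold. Its IGR gave -0.37 and 0.38.

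Of the regulators, ste11 was higher in swm1Δ. Its ORF log2 ratios for H3K4me2 were 0.75 and 0.83, a mean of 0.79 ± 0.053 (SD, n = 2) or 1.73-fold, with an adjusted p of 0.016 by limma, and all 4 spots lay between 0.67 and 0.94. map1 encodes a MADS-box protein needed for expression of P-specific genes. Its ORF gave 0.22 and 0.59, both above 0, with an adjusted p of 0.19, and its IGR gave 0.16 and -0.26.

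**Figure D2:**
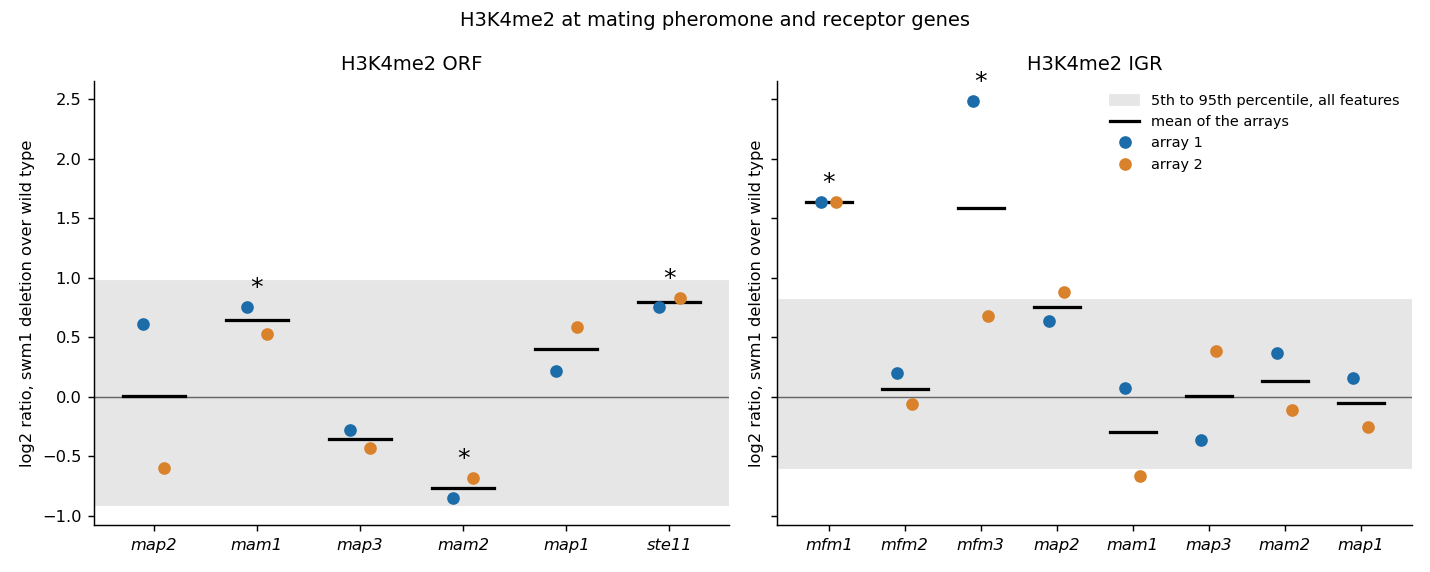
H3K4me2 log2 ratio of swm1Δ over wt (y axis) for each member's ORF feature (left) and IGR feature (right), with array 1 in blue, array 2 in orange, the mean as a black bar and the 5th to 95th percentile of the means of all features as a grey band; a star marks an adjusted p under 0.05 by limma. mfm1 and mfm3 lie above the band in the IGR panel, while the 3 called ORF features, mam1, mam2 and ste11, lie within it.

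Counted together, 2 of the 6 ORF members were called higher (mam1 and ste11), against 15.3% of all ORF features, and 1 was called lower (mam2), against 12.4%. Of the 8 IGR members 2 were called higher (mfm1 and mfm3), against 4.03% of all IGR features, and 0 lower, against 1.51%, with 3 members at an unadjusted p under 0.05, against 16% of all IGR features. At an unadjusted p under 0.05 there were 3 ORF members, against 42% of all ORF features. The median mean log2 ratio of the members was 0.20 in ORF features against -0.02 for all ORF features, and 0.10 in IGR features against -0.0047 for all IGR features. The study's methods counted a feature as changed when 3 or more data points reached 2.0-fold. Among the IGR members mfm1 alone passed, with 3 of 3 spots at 2.0 or more, against 1.95% of IGR features upwards and 0.463% downwards. mfm3 had 1 of its 3 spots at 2.0 or more. Of the ORF members 0 passed that rule in either direction, against 3.3% of all ORF features upwards and 2.11% downwards.

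The calls of mfm1, mam2 and ste11 held under every alternative processing that kept both arrays. The call of mam2 was at the edge of the threshold with median centring, at a mean of -0.66 and an adjusted p of 0.0497 by limma. That of mfm3 was lost with the log2 ratios as the authors deposited them, where its mean was 1.37 and its adjusted p 0.088, and that of mam1 without background correction, where its mean was 0.64 and its adjusted p 0.052.

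Other genes of the pathway were taken from a list of signalling, pheromone processing and mating genes and from a list of genes that regulate ste11. Of 38 listed signalling and mating genes 29 were matched to 30 ORF features, of which 6 were called higher and 4 lower for H3K4me2, shares near the 15.3% and 12.4% of all ORF features, with a median mean log2 ratio of 0.07 against -0.02 for all. Of 12 listed regulators of ste11 11 were matched to 11 ORF features, of which 10 were called higher and 1 lower, against the same 15.3% and 12.4%, with a median of 0.87 against -0.02. Both lists were chosen with earlier results of these data known, so these shares are a description only. The paper found that ORFs with raised H3K4me2 overlapped significantly with longer genes, and gene length was not compared here. The largest rises were at pcr1, which encodes a bZIP transcription factor, with 1.31 and 1.39 on the arrays (mean 1.35 ± 0.053, adjusted p 0.0011 by limma), git3, which encodes a glucose receptor, with 1.08 and 1.38 (mean 1.23 ± 0.22, adjusted p 0.0017), and cgs1, which encodes the regulatory subunit of protein kinase A, with 1.54 and 0.85 (mean 1.20 ± 0.48, adjusted p 0.0029). The list holds genes of the stress MAP kinase branch, which induces ste11, and of the protein kinase A branch, which represses it, and both branches had called genes among the 10. sty1, the stress-activated MAP kinase gene, was the regulator called lower, at -0.83 and -0.55 (adjusted p 0.032), and it is named here after its values were seen.

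The largest falls were at dni2, which encodes a membrane protein of cell fusion, with -1.55 and -1.35 (mean -1.45 ± 0.14, adjusted p 0.00088 by limma), at mam4, which encodes the methyltransferase that modifies M-factor, with -1.13 and -0.82 (mean -0.97 ± 0.22, adjusted p 0.0064), and at ste4, which encodes an adaptor of the MAP kinase cascade, with -0.84 and -0.68 (mean -0.76 ± 0.11, adjusted p 0.020). In IGR features 5 of 37 signalling and mating features and 1 of 11 regulator features were called higher and 0 of either list lower, against 4.03% and 1.51% of all IGR features. The largest rise was at a long IGR of zfs1, which encodes a zinc finger protein, with 1.71 and 2.54 (mean 2.12 ± 0.58, adjusted p 7.7e-05 by limma). Next were a long IGR of mei2, which encodes the RNA-binding protein that starts meiosis, with 2.08 and 1.74 (mean 1.91 ± 0.24, adjusted p 0.00013), and a long IGR of gpa2, a G protein gene of glucose sensing, with 1.56 and 1.13 (mean 1.35 ± 0.30, adjusted p 0.0031). The other IGR feature of gpa2 was not called, at a mean of 0.17 (adjusted p 0.85 by limma). A long IGR of ste7 was called (mean 1.19, adjusted p 0.0074) while its other IGR feature was not (mean 0.037, adjusted p 0.96). For mei2 the other IGR feature was called too (mean 1.24, adjusted p 0.0051). Features of the mating-type genes may carry signal from near-identical copies at the silent cassettes.

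**Figure D3:**
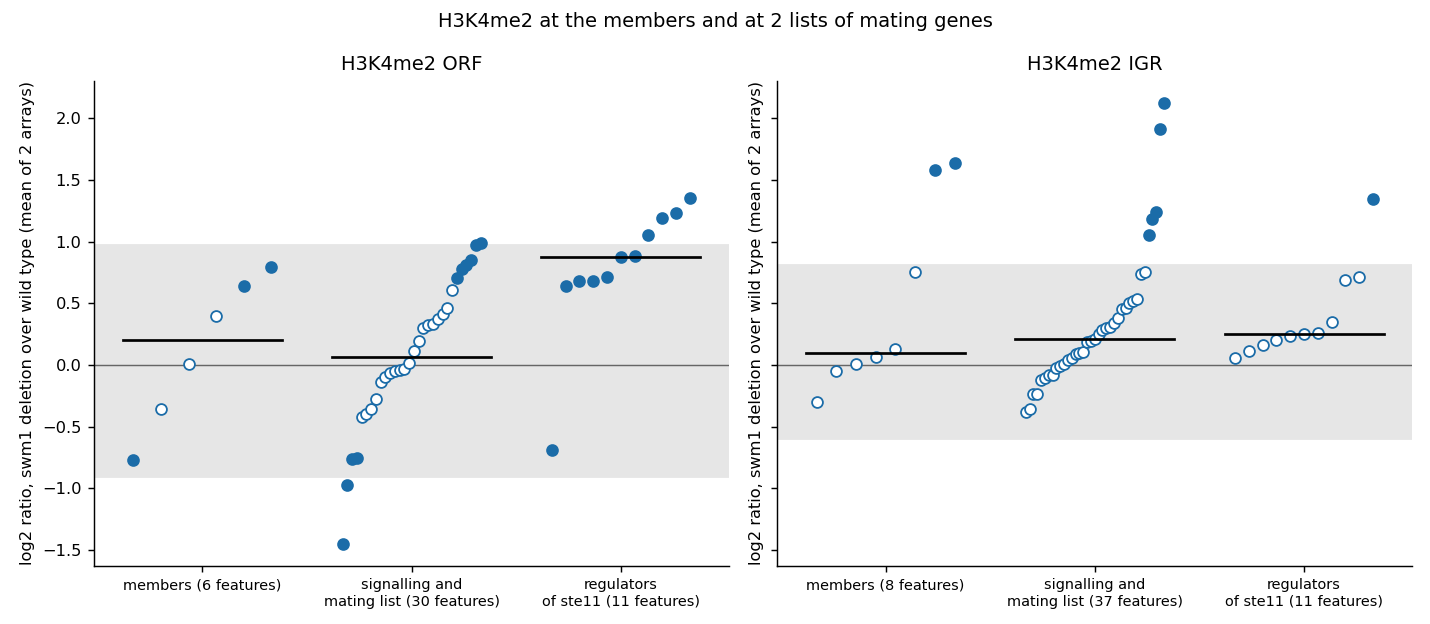
Mean H3K4me2 log2 ratio of swm1Δ over wt (y axis, 2 arrays) for each feature of the members, of the signalling and mating list and of the regulators of ste11, in ORF features (left) and IGR features (right); filled points have an adjusted p under 0.05 by limma, black bars are medians and the grey band is the 5th to 95th percentile of all features. In the ORF panel 10 of the 11 regulator features are filled above 0 and 1 below. The lists were chosen with earlier results of these data known.

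H3K9me2 was compared in the same way. By limma 0 of the 6 ORF members and 0 of the 8 IGR members were called, against 0% of all ORF and 0% of all IGR features, and an unadjusted p under 0.05 was given to 1 ORF member (mam2) and 0 IGR members, against 4.26% of all ORF and 5.35% of all IGR features. With 2 arrays that hardly correlated, the H3K9me2 values of a single gene have little precision, and the median SD over 2 arrays was 0.80 for ORF and 0.79 for IGR features, against 0.22 and 0.25 for H3K4me2.

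map1 had the highest H3K9me2 ORF ratio of the members and the lowest IGR ratio. Its ORF log2 ratios were 1.68 and 1.15, a mean of 1.41 ± 0.37 (SD, n = 2), and its IGR ratios were -1.62 and -1.44, a mean of -1.53 ± 0.13 (SD, n = 2). On IGR array 2 its spots were dim, with swm1Δ signals of 270 and 328 and wt signals at 1.98 and 1.93 times background. For IGR array 1 there are no scanner signals to check. The adjusted p was 0.93 for the ORF and 0.96 for the IGR by limma. All 4 ORF spots were at least 2.0-fold higher and all 4 IGR spots at least 2.0-fold lower, so map1 passed the rule of the methods in both kinds of region. It passed upwards in its ORF, against 3.62% of ORF features upwards and 3.79% downwards, and downwards in its IGR, against 2.65% of IGR features downwards and 4.77% upwards. The difference between its ORF and IGR was not tested. With the dyes of ORF array 1 read by their own label the ORF values were -1.68 and 1.15, on opposite sides of 0, and the ORF no longer passed.

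Of the pheromone genes, mfm1 was below 0 on both H3K9me2 IGR arrays, at -1.86 and -0.87, a mean of -1.37 ± 0.70 (SD, n = 2), with 2 of 4 spots past the 2.0-fold cut-off and an adjusted p of 0.998 by limma. mfm3 gave 1.59 and -0.12, and mfm2 gave 0.91 and -0.95, so each had its 2 arrays on opposite sides of 0. These IGR values are the deposited ratios, and the median of all features was 0.47 on array 1 and -0.06 on array 2. map2 gave 0.12 and 0.45 in its IGR and -0.03 and 0.13 in its ORF. The 3 M-factor genes thus had no common direction for this mark, and none of them was called.

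Of the transporter and receptor genes, mam2 had ORF values of -4.13 and -0.75, the lowest of the ORF members, but 1 of the 2 array 1 spots had a swm1Δ signal of 1.33 times its background, and the array values were far apart. With the dyes of that array read by its own label its value there was 4.13. mam2 gave -0.82 and -0.03 in its IGR. mam1 was near 0 in its ORF (-0.06 and 0.16) and in its IGR (-0.09 and -0.28). map3 gave -0.12 and -0.27 in its ORF and -0.68 and 0.21 in its IGR. Its ORF value on array 1 came from dim spots, with wt signals of 56 and 47.5 and swm1Δ signals at 1.79 and 1.70 times background. ste11 gave -0.0022 and -0.72, and the first value came from spots at 1.05 to 1.58 times the local background, so that it is not a measured ratio of the mark.

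**Figure D4:**
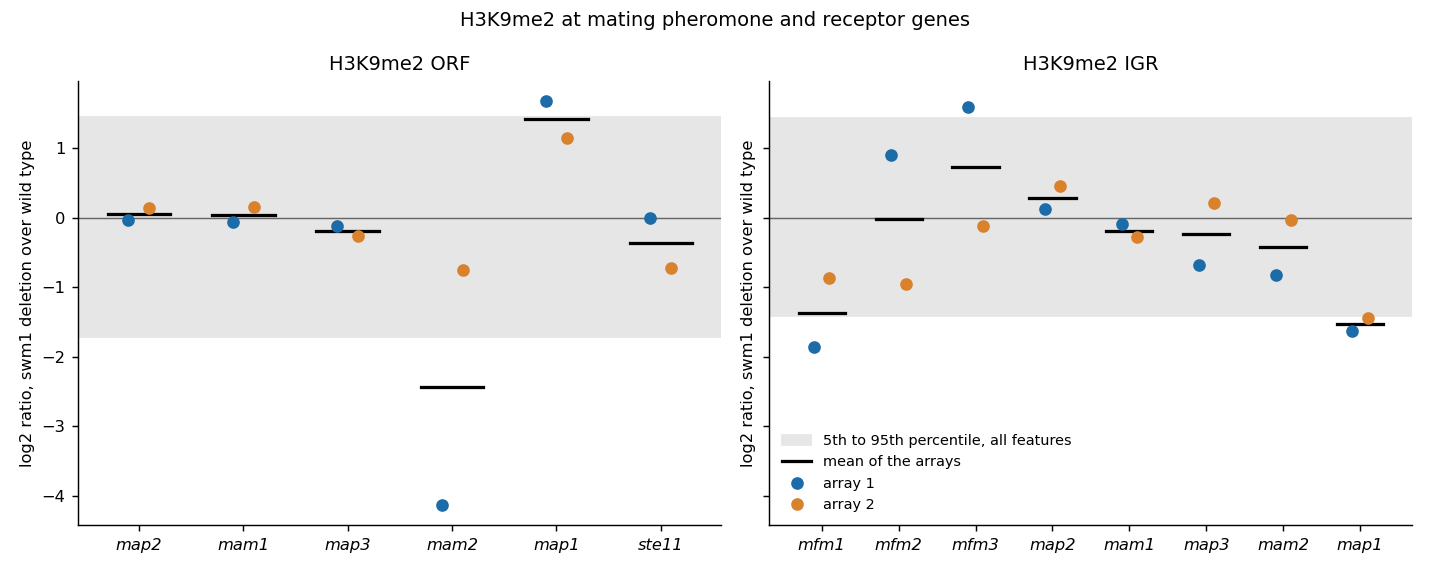
H3K9me2 log2 ratio of swm1Δ over wt (y axis) for each member's ORF feature (left) and IGR feature (right), with array 1 in blue, array 2 in orange, the mean as a black bar and the 5th to 95th percentile of the means of all features as a grey band. map1 is high in its ORF and low in its IGR on both arrays, mam2 is low in its ORF chiefly on array 1, and 0 members were called by limma.

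Hrp1 and Hrp3, chromatin remodellers of the CHD family, were measured as IP over input. By the dye labels 0 members were called for either protein in either kind of region by limma, against 0% of all features, with an unadjusted p under 0.05 for 2 ORF members of Hrp1 (mam1 and map1), 1 ORF member of Hrp3 (mam2) and 0 IGR members of either. The shares of all features at an unadjusted p under 0.05 were 6.41% for Hrp1 ORF, 5.78% for Hrp1 IGR, 6.61% for Hrp3 ORF and 4.15% for Hrp3 IGR. The methods took as bound the features whose median percentile rank over the arrays reached 0.90 (Hrp1) or 0.94 (Hrp3), and by this rule 0 members passed, against 4.38% of ORF and 4.76% of IGR features for Hrp1 and 3.5% and 3.24% for Hrp3.

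The pheromone genes gave the following values. mfm1 was above 0 on all 3 Hrp1 IGR arrays (1.21, 0.40 and 0.31) and below 0 on all 3 Hrp3 IGR arrays (-0.34, -0.54 and -0.33), with adjusted p of 0.88 and 0.84 by limma. mfm3 gave 1.02, -0.03 and 0.37 for Hrp1 and -0.40, 0.37 and -0.30 for Hrp3. mfm2 was above 0 on the 3 Hrp1 arrays (0.32, 0.33 and 0.13) and gave -0.30, 0.09 and 0.14 for Hrp3. With the signs of Hrp1 array 2 and Hrp3 array 1 turned, mfm1 lay on both sides of 0 for each protein. The highest values by the dye labels, mfm1 and mfm3 on Hrp1 array 1, stood apart from the lower values of the other arrays. That array also carries a different code in its title, and is listed under a different platform, from the other Hrp1 arrays. The input spots on Hrp3 array 1 were at 1.22 and 1.32 times background for mfm1 and at 0.91 and 1.10 times for mfm2.

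map2 gave -0.04, -0.09 and 0.13 on the 3 Hrp1 IGR arrays and was below 0 on the 3 Hrp3 IGR arrays (-0.27, -0.47 and -0.73). Its ORF gave 0.18, -0.71 and -0.43 for Hrp1 and 0.04, -0.44 and -0.59 for Hrp3. The arrays of each ORF group lay on both sides of 0.

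The transporter gene mam1 was above 0 on the 3 Hrp1 ORF arrays (0.30, 0.44 and 0.93), while its Hrp1 IGR values of 0.28, -1.47 and 0.12 were spread over both signs. For Hrp3 its ORF gave -0.43, 0.39 and 0.39 and its IGR -0.08, 1.21 and 0.14, where the array 2 value came from input spots at 1.25 and 1.10 times background. mam2 was below 0 on the 3 Hrp3 ORF arrays (-0.95, -1.11 and -0.51), with IP and input spots on array 2 at 1.15 to 1.39 times background. Its other values lay between -0.84 and 0.38. The other receptor gene, map3, gave values between -0.53 and 0.37 on the Hrp arrays.

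The regulator map1 was below 0 on all 3 Hrp1 ORF arrays (-0.70, -0.46 and -0.76) and gave 0.36, -1.34 and -1.08 for Hrp3. Its Hrp1 IGR values were 0.72, -1.86 and 0.48, so that array 2 lay far below the others. Its Hrp3 IGR values were 0.41, -0.36 and -0.55. ste11 gave -0.36, -0.74 and -0.04 for Hrp1 and 0.10, 1.31 and 0.21 for Hrp3, where the 1.31 on array 2 was the mean of spots at 2.16 and 0.46, 1 of them with an input signal of 0.84 times its background.

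Array 2 of Hrp1 and array 1 of Hrp3 correlated below 0 with the other arrays of their group, at r of -0.13 and -0.14 for Hrp1 ORF, -0.19 and -0.17 for Hrp1 IGR, -0.23 and -0.28 for Hrp3 ORF and -0.27 and -0.29 for Hrp3 IGR, while the other pair of each group correlated at 0.56, 0.59, 0.76 and 0.70. With the sign of those arrays turned, 0 members were called in the 4 groups by limma. Of all features 0.0205% of Hrp1 ORF, 0.0403% of Hrp1 IGR, 1.72% of Hrp3 ORF and 2.16% of Hrp3 IGR features were then called higher, and 0.205%, 0%, 0.471% and 0.363% lower. Turned in this way, mam1 and map1 had mean IGR log2 ratios for Hrp1 of 0.62 and 1.02 in place of -0.36 and -0.22. Without array 2 of Hrp1, mam1 (0.62, adjusted p 0.044) and map1 (-0.73, adjusted p 0.014) were called in ORF features by limma, against 3.81% of ORF features called higher and 5.32% lower. Without array 1 of Hrp3, map1 (-1.21, adjusted p 1.7e-05), mam2 (-0.81, adjusted p 0.0063) and ste11 (0.76, adjusted p 0.011) were called in ORF features by limma. Of all ORF features 15.8% were then called higher and 11.8% lower. The array 2 spots behind 2 of these calls were near background, at 1.15 to 1.39 times for mam2 and 0.84 to 1.46 times for ste11. In IGR features mam1 (0.68, adjusted p 0.0499) and mam2 (-0.68, adjusted p 0.045) were called, the former with input spots near background on array 2, against 15.7% higher and 11.9% lower. By the labels Cy3 held the IP on all Hrp arrays. The deposited values, however, followed Cy5 on the opposing arrays, at a Spearman correlation of 0.97 (ORF) and 0.98 (IGR) for Hrp1 and 0.98 in both for Hrp3. On the other Hrp arrays they followed Cy3, at 0.96 to 0.999. Which dye held the IP on the opposing arrays was not tested.

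**Figure D5:**
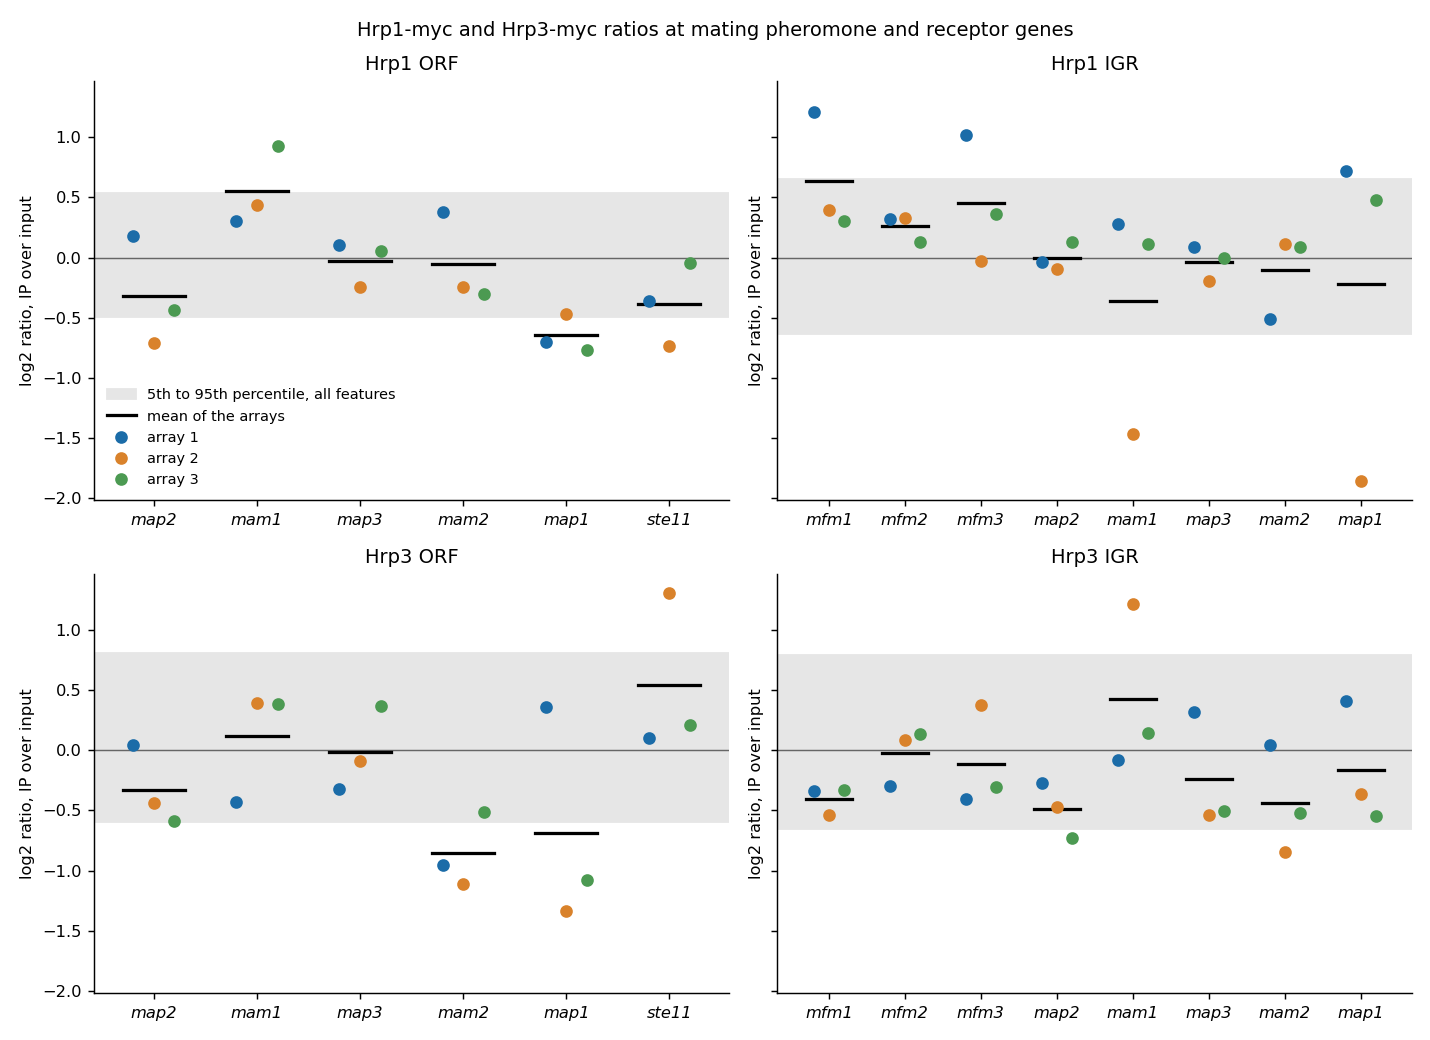
Log2 ratio of IP over input (y axis, each array centred on its median) for Hrp1 (top) and Hrp3 (bottom) at each member's ORF feature (left) and IGR feature (right), with arrays 1 to 3 in blue, orange and green, the mean as a black bar and the 5th to 95th percentile of the means of all features as a grey band. By the dye labels mfm1 is above 0 on the 3 Hrp1 arrays and below 0 on the 3 Hrp3 arrays, a pattern lost when Hrp1 array 2 and Hrp3 array 1 are turned, and 0 members were called by limma.

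The values deposited for Hrp1 and Hrp3 follow a single dye on each array rather than a ratio, Cy5 on the opposing arrays and Cy3 on the others. By them mfm3 had percentile ranks of 0.947, 0.840 and 0.928 on the 3 Hrp1 IGR arrays, a median of 0.928 and past 0.90, as had 8.85% of IGR features. map3 came next among the members at 0.882, then mfm1 at 0.870 and map2 at 0.836, while mfm2 was at 0.381. By limma on the same values map2, map3, mfm1 and mfm3 were called higher, against 19.8% of all IGR features, and 0 lower, against 16.7%. These ranks and calls are of the signal in a single dye and not of IP over input. As IP over input by the dye labels the median percentile rank of mfm3 was 0.782. A further 6 arrays are labelled as total histone H3 in cells labelled Hrp1-D. Their deposited values equal those of the 6 Hrp1 arrays within 0.01 log2 units at 99.7% to 100% of spots, and match any other Hrp array at 1.68% of spots at most, so they give no separate measurement of the members.

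Across the 10 methylation and Hrp arrays of each kind of region, with every array centred and scaled, the IGR profile of mfm1 was most like those of mfm3 (Pearson's r = 0.73) and map2 (0.73) among the members, and mfm1 with mfm2 gave 0.26. Members shared no common ORF profile, with r between -0.66 for map1 and map3 and 0.42 for map1 and map2. Among features of other genes, the closest profile was that of tlh1 (listed as SPAC212.11), a telomeric helicase gene, to the IGR of map2 (0.96), of a fragment listed as telomeric to the IGR of mfm1 (0.91) and of the centromeric repeat imr2L to the IGR of mfm2 (0.90). For 10 further features of members the closest feature had an r between 0.89 and 0.94. These are the highest of 4879 ORF or 4892 IGR features compared, over points that share slides and dyes, and are a description only.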

How the data were processed

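Scanner files that the authors deposited hold median signal and local background intensity per spot in Cy3 and Cy5. For methylation the authors also deposited log2 ratios after Lowess normalization in GeneSpring, used here for the H3K9me2 IGR arrays, since 1 of them has no scanner file. Deposited log10 values of the Hrp arrays track a single dye. Their tables also hold log2 values for arrays labelled H3. Array annotation is that of the files, and the build behind it is not given in the sources used here.

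Intensities were background corrected by normexp with an offset of 50 (limma 3.58.1, R 4.3.3). Methylation ratios were loess normalized within each file and Hrp ratios centred on the array median. Control and missing features were left out. Array means were tested against 0 by limma with Benjamini-Hochberg adjustment over all features at 0.05, for 2 arrays with 1 residual degree of freedom. The number of arrays limits the precision. The rules of the study's methods were applied beside it. Alternatives changed normalization, background correction, spots, dyes and arrays. The test was checked on simulated data. Tables used Python 3.11.15 with pandas 2.3.3. Of 28 deposited value columns 26 were read. The 2 expression columns were not used, since their rows are not named.

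All members were named, with the 3 largest called changes of the pathway lists in each direction and the closest profile of each member, except that 1 such profile is not reported here. List genes were matched by symbol, synonym or systematic name. The members and lists were chosen with earlier results of these data known.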

Additional observations from a re-analysis of the deposited data

Results flagged for a closer look

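mfm1 and ste11 were picked out because every array of a measurement lay on the opposite side of 0 from every array of the measurement it is set beside. For mfm1 the IGR mean log2 ratio of swm1Δ over wt was 1.64 for H3K4me2 and -1.37 for H3K9me2 (2 arrays each). For ste11 the ORF means were 0.79 for H3K4me2 and -0.36 for H3K9me2, but the second rests on an array 1 value of -0.0022 from spots at the local background, which is 0.0022 with the dyes of that array read by its own label, so that ste11 then lies on both sides of 0. As IP over input, mfm1 had IGR means of 0.64 for Hrp1 and -0.40 for Hrp3, and ste11 had ORF means of -0.38 for Hrp1 and 0.54 for Hrp3 (3 arrays each). These Hrp directions rest on arrays whose dyes are unsettled. With the opposing array of each group turned, mfm1 gave 1.21, -0.40 and 0.31 for Hrp1 (mean 0.37) and 0.34, -0.54 and -0.33 for Hrp3 (mean -0.18), and ste11 gave -0.36, 0.74 and -0.04 for Hrp1 (mean 0.11), so that neither gene kept to opposite sides of 0. None of these differences was tested.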

How the results depend on the processing

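No paired analysis was possible because each array already holds both conditions as a single ratio that is tested against 0. For H3K4me2 the count of called members stayed within 1.5 times under every alternative for ORF features and fell from 2 to 1 for IGR features with the deposited log2 ratios. Members past 2.0 in 3 data points numbered 0 in ORF and 1 in IGR features for H3K4me2 and 1 in each for H3K9me2. With a cut-off of 1.5 these became 3, 3, 2 and 2, and with the mean over data points 2 for H3K4me2 IGR and 2 for both H3K9me2 kinds. Leaving out either array gave means of 0.53 to 0.76 for mam1, -0.85 to -0.68 for mam2, 0.75 to 0.83 for ste11, 1.64 to 1.64 for mfm1 and 0.68 to 2.48 for mfm3. For Hrp1, members called ranged from 0 to 2 in ORF features when an array was left out and were 4 in IGR features with the deposited log10 values, by which 1 member passed the rank rule. For Hrp3 they ranged from 0 to 3 in ORF and 0 to 2 in IGR features when an array was left out. With the opposing array turned, the sign of the mean changed for 4 of 6 Hrp1 ORF, 4 of 8 Hrp1 IGR, 1 of 6 Hrp3 ORF and 2 of 8 Hrp3 IGR members, and with the deposited log10 values for 2, 6, 3 and 4 of them. None of these was called by the main test. Of the members that were called under at least 1 alternative, those whose mean turned were, with the deposited log10 values, the Hrp1 ORF of mam1 (-0.045) and map1 (0.12), the Hrp1 IGR of map2 (0.36) and map3 (0.40), the Hrp3 ORF of map1 (0.28) and ste11 (-0.26) and the Hrp3 IGR of mam2 (0.21), in log10 units. Since the deposited values follow a single dye, their sign is that of a signal and not of IP over input, and the 2 measures are unlike. They were also the Hrp1 IGR of map2 (0.059) and map3 (0.093) with the opposing array turned, map2 (0.0033) with loess, and, when an array was left out, map2 (-0.065 to 0.044) and map3 (-0.097 to 0.043). The cause of the sign changes with settings other than the deposited values was not tested. Of the members not called for H3K9me2 ORF, 2 of 6 changed the sign of their mean with median centring, 3 with the deposited ratios and 2 with the own dye label of array 1. Spots as data points with an array block could not be fitted for H3K4me2 IGR, with 3 data points a feature, and the alternatives for the arrays labelled H3 were not run, since their values equal those of Hrp1.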
